A study of Mus musculus with 18 samples.

Results

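Chromatin accessibility was described at the amino acid and glucose transporter genes of mouse macrophages. A region was taken when its nearest protein-coding gene, within 50 kb, belonged to the solute carrier families Slc1, Slc2, Slc3, Slc6, Slc7, Slc36, Slc38 or Slc43, with the cystine transporter gene Slc7a11 left out. This gave 227 of the 53796 accessible regions in the table. They lie nearest to 57 of the 75 genes of these families, and the other 18 genes have no region assigned. The symbol rule also took in Slc7a6os, a gene named for its position opposite Slc7a6 that is not itself a transporter. Assignment by distance does not show which gene a region acts on.

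These carriers move amino acids and sugars across the plasma and lysosomal membranes. Slc7 light subunits reach the cell surface as partners of an Slc3 heavy chain, Slc7a1 and Slc7a2 carry arginine and other cationic amino acids, Slc1 and Slc38 members carry glutamate, glutamine and other neutral amino acids, and Slc2 members carry glucose and related sugars and polyols. In stimulated macrophages, arginine feeds nitric oxide synthesis, glucose feeds glycolysis, and amino acid supply is read at the lysosome by the mTORC1 pathway.

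ATAC-seq, which cuts open chromatin with a transposase, was done on bone-marrow-derived macrophages of wild-type C57BL/6 mice aged 6 to 12 weeks, grown in M-CSF at 20 ng/mL and replated on day 7. Each culture received a first treatment for 4 h and then a second for 4 h. The agents were 100 nM CpG DNA, which is sensed by the endosomal receptor TLR9, 1 µg/mL polyI:C, which imitates viral double-stranded RNA, 1 ng/mL LPS, which is sensed by TLR4, and 10 ng/mL TNF, a cytokine. The 9 groups of 2 libraries each were medium then medium (MM), medium then CpG (MC), LPS (ML), polyI:C (MP) or TNF (MT), CpG then LPS (CL) or TNF (CT), and polyI:C then LPS (PL) or TNF (PT). The labels name neither mice nor separate cultures for the 2 libraries of a group, so p-values measure the spread between libraries, which may be technical.

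The start-site windows of 4 genes are shown because they lie under regions that behaved differently: those of Slc2a6 and Slc6a12 overlap regions that rose with stimulation, and those of Slc2a1 and Slc7a1 overlap regions with no call in any of the 4 single-stimulus comparisons. Each window holds 250 bases before and 50 after a RefSeq start site (GRCm38.p6), written 5′ to 3′ on the gene's strand. The positions are chr2:27027949-27028248 on the minus strand for Slc2a6, chr6:121342826-121343125 on the plus strand for Slc6a12, chr4:119108495-119108794 on the plus strand for Slc2a1 and chr5:148399855-148400154 on the minus strand for Slc7a1. Capitals mark GC boxes (GGGCGG or its reverse complement, CCGCCC) and AP-1 motifs (TGANTCA).
Slc2a6: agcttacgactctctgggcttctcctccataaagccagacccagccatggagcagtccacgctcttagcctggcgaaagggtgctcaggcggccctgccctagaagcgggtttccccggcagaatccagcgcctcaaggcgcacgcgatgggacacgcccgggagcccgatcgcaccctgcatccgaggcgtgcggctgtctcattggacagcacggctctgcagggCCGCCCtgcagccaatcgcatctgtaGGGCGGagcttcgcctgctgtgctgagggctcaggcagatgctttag
Slc6a12: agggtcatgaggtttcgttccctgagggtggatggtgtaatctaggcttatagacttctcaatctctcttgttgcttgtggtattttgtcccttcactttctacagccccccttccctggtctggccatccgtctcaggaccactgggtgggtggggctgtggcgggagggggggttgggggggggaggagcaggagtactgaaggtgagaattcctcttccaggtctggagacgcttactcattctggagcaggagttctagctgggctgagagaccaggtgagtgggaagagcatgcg
Slc2a1: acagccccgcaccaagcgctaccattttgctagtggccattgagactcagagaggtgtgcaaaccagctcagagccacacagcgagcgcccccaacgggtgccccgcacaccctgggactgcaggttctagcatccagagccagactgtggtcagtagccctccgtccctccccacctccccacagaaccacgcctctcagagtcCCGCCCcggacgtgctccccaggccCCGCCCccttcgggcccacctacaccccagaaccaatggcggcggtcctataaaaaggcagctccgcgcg
Slc7a1: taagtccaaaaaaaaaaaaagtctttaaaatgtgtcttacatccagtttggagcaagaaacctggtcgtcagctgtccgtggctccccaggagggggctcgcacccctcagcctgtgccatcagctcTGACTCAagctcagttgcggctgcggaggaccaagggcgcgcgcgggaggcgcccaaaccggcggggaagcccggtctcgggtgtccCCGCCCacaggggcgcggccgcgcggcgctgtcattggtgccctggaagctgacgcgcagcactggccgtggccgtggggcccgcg
The Slc2a6 and Slc2a1 windows each hold 2 GC boxes, Slc7a1 holds 1 GC box and 1 AP-1 motif, and none of the 8 motifs searched was found in these letters of the Slc6a12 window, whose last part overlaps the region. The motifs were AP-1, the GC box, CRE (TGACGTCA), C/EBP-ATF (TGATGNAA), the κB motif, ISRE (GAAA repeated after any 2 bases), the E-box (CACGTG) and PU.1 (GAGGAAGT), and no matches overlap in the printed windows. Of 26 start-site windows of 21 genes, Slc7a6os included, that overlap a region, 16 hold a GC box, against 35.7% of all 32851 windows. The sets are unlike: the 26 were kept for overlapping an accessible region, and the 32851 were not. Some genes also have more than 1 of the 26, so these shares do not show a motif excess at transporter genes. AP-1 was found in 3 of the 26 (7.8% of all windows) and a κB motif in 3 of the 26 (8.5% of all windows), those of Slc2a13, Slc36a4 and Slc43a2. The E-box was found in 2, CRE and C/EBP-ATF in 1 each, and ISRE and PU.1 in 0, against 7.2%, 1.8%, 4.0%, 3.4% and 3.2% of all windows. Both strands were searched, and a match is a description of the letters only.

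The deposited values are depth-scaled read counts on a log2 scale (log2 CPM). Whole reads could be recovered from them, and the libraries held 3141641 to 5986835 reads in regions, with a median of 40 to 75 reads per region. Regions at or within 1 kb of a gene end were found for 10 of 10 macrophage markers, with median levels of 3.34 to 5.79 log2 CPM. Such regions were also found for 1 of 6 T and NK cell markers, 1 of 4 B cell, 2 of 5 neutrophil, 1 of 4 dendritic cell, 1 of 4 erythroid and progenitor, and 0 of 4 stromal and endothelial markers, and the 6 that were found had median levels of 2.74 to 4.33, which overlap the macrophage range. The 2 MP libraries agreed within sampling noise (chi-square per region 1.00, p = 0.283, against 1.07 to 2.72 in the other groups) and were counted as 1 sample. The 2 PT libraries were the least alike, with a Pearson correlation of 0.919 over regions.

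The transporter regions had mean levels of 1.46 to 6.87 log2 CPM over all libraries, with a median of 3.72. Of the 227, 44 lie within 1 kb of a gene end, 125 lie deeper inside a gene body and 58 lie between genes. The inside share of 55.1% compares with 43.3% of all regions. Slc1a2 and Slc6a6 have the most, with 14 regions each, and 17 genes have 1. The most accessible, picked out after its level was seen, lies 8.5 kb from Slc2a3, which encodes a high-affinity glucose transporter.

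After a single stimulus, more transporter regions opened than closed, at rates close to those of the whole table. CpG alone raised 45 regions and lowered 25 against medium, where 17.2% of all regions were called higher and 8.79% lower. LPS alone raised 44 and lowered 18, against 15% and 9.55% of all regions. PolyI:C alone raised 37 and lowered 16, against 14.3% and 8.28%, and 46 and 32 with its libraries counted as 2 samples, 44 and 26 by voom, or 35 and 25 with only MP and MM in the fit. TNF alone raised 16 and lowered 0, against 5.79% and 0.573%. After quantile normalization the splits were 30 and 25 with CpG, 34 and 13 with LPS, 28 and 16 with polyI:C, and 10 and 0 with TNF. Called means an adjusted p under 0.05 in limma's moderated test over all 53796 regions. The 70 calls with CpG became 45 without MC replicate 2, and the 62 with LPS became 36 when MM replicate 2 was dropped, 41 for ML replicate 2 and 34 for ML replicate 1. The median log2 difference over the 227 was 0.08 with CpG, 0.08 with LPS, 0.05 with polyI:C and 0.03 with TNF, beside 0.01, 0.00, -0.01 and -0.01 over all regions. Quantile normalization moved these medians to -0.01, 0.04, -0.03 and 0.02 over the 227, beside -0.05, -0.04, -0.06 and -0.03 over all regions. These 4 comparisons share the MM libraries. In bulk libraries, a change in the share of cells with an open region and a change in accessibility per cell cannot be told apart.

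**Figure D1:**
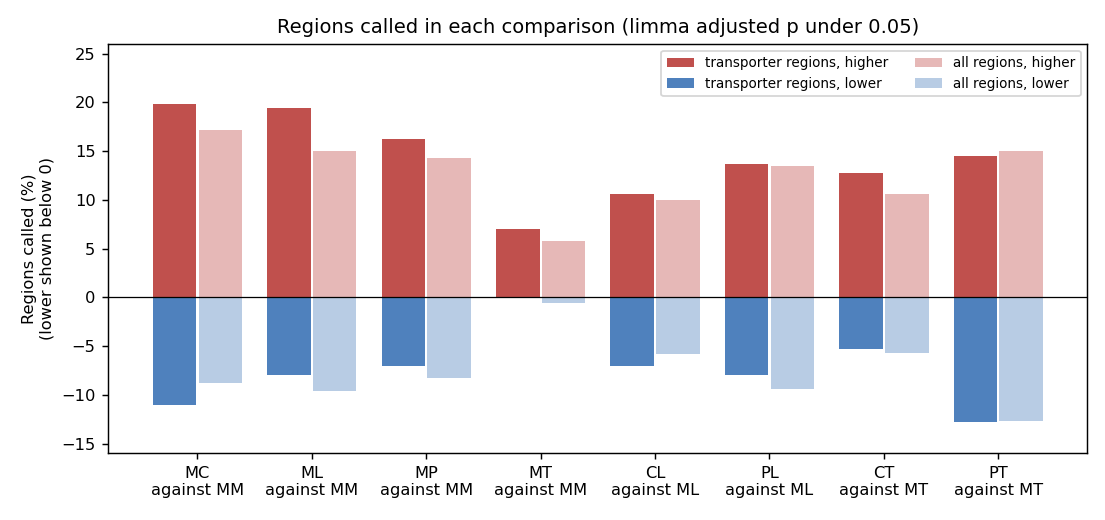
Percentage of regions called higher (above 0) or lower (drawn below 0) in 8 comparisons, for the 227 transporter regions (dark bars) and all 53796 regions (pale bars). The dark and pale bars are close in height in each comparison, as with 45 higher transporter regions after CpG beside 17.2% of all regions.

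The changes were mostly away from gene ends. With CpG, 32 of the 125 regions inside genes rose, against 4 of the 44 at gene ends and 9 of the 58 between genes. The same shares over all regions were 20% inside, 6.54% at gene ends and 21.7% between genes, so the low rate at gene ends is also seen in the whole table. With LPS the counts of rises were 33 inside, 3 at gene ends and 8 between genes, where 17.3%, 7.15% and 18.5% of all regions in those places rose. With polyI:C they were 26, 3 and 8, where 16.4%, 6.53% and 18% of all regions rose.

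**Figure D2:**
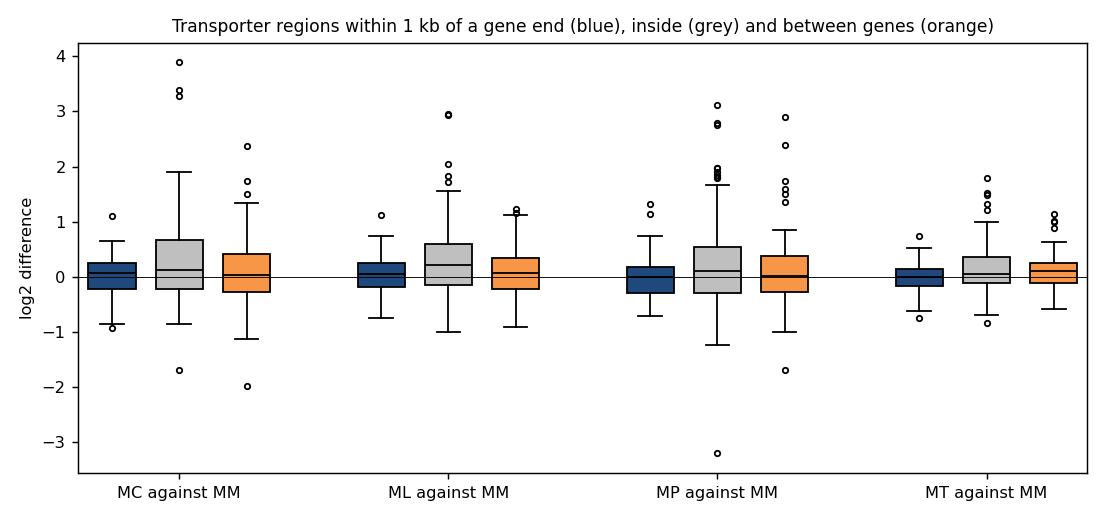
Log2 differences of the 227 transporter regions after each single stimulus against medium, split by place; boxes span the quartiles with the median as a line, whiskers reach 1.5 interquartile ranges and points lie beyond. The largest rise with each stimulus, up to 3.89 with CpG, belongs to a region inside a gene.

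Among the Slc1 genes, which encode glutamate and neutral amino acid carriers, 10 of 21 regions rose with CpG, 11 with LPS, 7 with polyI:C and 5 with TNF, and 1 fell in each of the first 3. Of all regions, 17.2% rose and 8.79% fell with CpG, 15% and 9.55% with LPS, and 14.3% and 8.28% with polyI:C. With TNF 5.79% of all regions rose. Most of the called Slc1 regions lie in Slc1a2, which encodes a high-affinity glutamate transporter best known from astrocytes. All of its 14 regions lie inside the gene body, and 10 of them rose with CpG. Exon positions were not used here, so intron and exon are not distinguished.

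The Slc1a2 region at chr2:102757064-102757565 had 0.88 and 0.64 log2 CPM in medium and 4.66 and 4.64 after CpG alone. LPS alone gave 2.78 and 2.81, polyI:C alone 1.38 and 0.93, and TNF alone 0.70 and 0.45. Both CpG libraries were above every other single-stimulus library, LPS lay between, and TNF overlapped medium. The difference from medium was 3.89 with CpG (SE 0.25, adjusted p = 1.9e-14) and 2.04 with LPS (SE 0.25, adjusted p = 8.1e-08), while polyI:C gave 0.40 (SE 0.30, adjusted p = 0.39). In reads this was 251 after CpG against 10 in medium, a depth-scaled ratio of 21.9 (95% counting interval 11.7 to 46.1). CpG exceeded LPS directly, by 1.85 (SE 0.25, adjusted p = 1.5e-05). It was the single transporter region that rose with CpG and was also higher with CpG than with LPS and than with polyI:C, a pattern held by 0.4% of transporter regions and 1.4% of all regions.

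A neighbouring Slc1a2 region at chr2:102733221-102733722 had another order of stimuli. Its reads were 0 and 2 in the medium libraries and 39 and 32 after polyI:C, a depth-scaled ratio of 31.1 with a wide 95% counting interval of 8.30 to 262. On the log2 scale polyI:C gave 2.94 and 2.91, CpG 1.04 and 0.79, and LPS 1.33 and 1.15. The polyI:C libraries stood above all other single-stimulus libraries. The rise with polyI:C was 3.12 (SE 0.43, adjusted p = 1.1e-06), and polyI:C exceeded CpG by 2.01 (SE 0.43, adjusted p = 0.0014). The log2 values include a prior of 3 reads, which understates changes at such low counts.

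A further Slc1a2 region, chr2:102722489-102722990, rose with all 4 stimuli. It went from 0.88 and 0.31 in medium to 3.85 and 4.13 with CpG, 3.44 and 3.61 with LPS, 1.74 and 2.10 with polyI:C, and 2.36 and 2.43 with TNF. No stimulated library overlapped medium. The rise was 3.39 with CpG (SE 0.26, adjusted p = 1.3e-12) and 1.79 with TNF (SE 0.26, adjusted p = 6.6e-06). Elsewhere in the gene, chr2:102760133-102760634 fell instead, by 1.18 with polyI:C (SE 0.31, adjusted p = 0.0049) and by 0.79 with CpG (SE 0.26, adjusted p = 0.019). Slc1a3, another glutamate transporter gene, had a region 6.7 kb from its end that fell by 0.84 with LPS (SE 0.18, adjusted p = 0.00074).

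**Figure D3:**
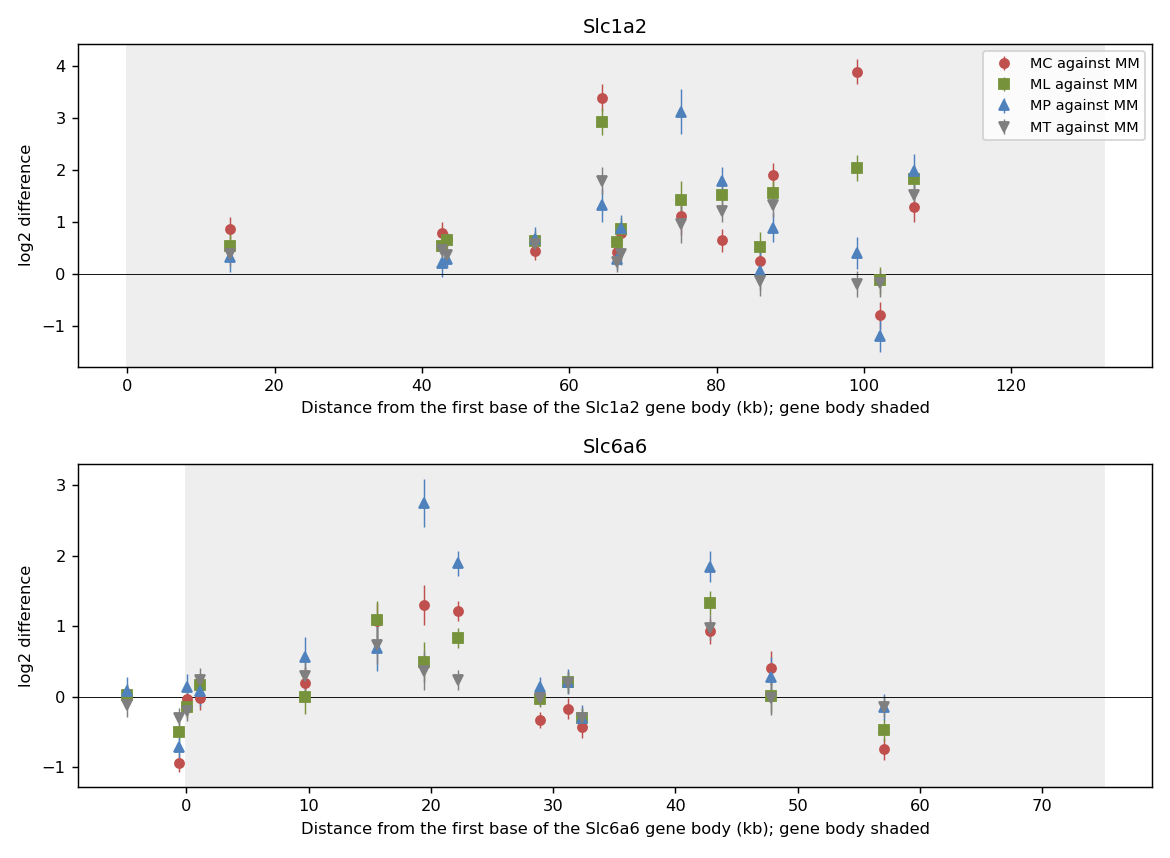
Log2 difference from medium (points, with SE bars from the limma fit) at each of the 14 regions of Slc1a2 and the 14 of Slc6a6, by distance from the first base of the gene body in kb, for the 4 single stimuli. Regions of one gene differ in which stimulus gives the largest difference, such as the Slc1a2 regions with 3.12 after polyI:C and 3.89 after CpG.

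Of 37 Slc2 regions, 4 rose and 3 fell with CpG, 4 rose and 6 fell with LPS, and 3 rose and 4 fell with polyI:C. The shares of all regions were 17.2% and 8.79% with CpG, 15% and 9.55% with LPS, and 14.3% and 8.28% with polyI:C. The start region of Slc2a1, the main glucose transporter of many cells, whose window is printed above, had 5.73 and 5.31 log2 CPM in medium and stayed between 5.21 and 5.68 in the 8 single-stimulus libraries. The largest of its 4 differences was -0.29 with polyI:C (SE 0.17, adjusted p = 0.26). Another region nearest to Slc2a1, chr4:119102172-119102673 outside the gene, gave -0.94 with CpG before TNF against TNF alone (SE 0.26, adjusted p = 0.0090). Slc2a6, which encodes a lysosome-associated hexose transporter, opened at its start. Its region at chr2:27027780-27028281 had 4.25 and 4.30 in medium, 4.88 and 4.96 with CpG, 5.47 and 5.33 with LPS, 5.42 and 5.39 with polyI:C, and 5.06 and 4.55 with TNF. Each stimulated library was above both medium libraries. The rise was 1.13 with LPS (SE 0.17, adjusted p = 3.0e-06), 1.14 with polyI:C (SE 0.20, adjusted p = 6.2e-05) and 0.65 with CpG (SE 0.17, adjusted p = 0.0033), and the 0.53 with TNF (adjusted p = 0.049) lost its call without MT replicate 1 (adjusted p = 0.59). PolyI:C lowered a region inside Slc2a13, a myo-inositol transporter gene, by 1.24 (SE 0.26, adjusted p = 0.00041).

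Slc6 genes encode sodium- and chloride-coupled carriers. With CpG, 9 of their 34 regions rose and 4 fell, where 17.2% of all regions rose and 8.79% fell. With LPS 6 rose and 3 fell (15% and 9.55% of all regions), and with polyI:C 5 and 1 (14.3% and 8.28%). Slc6a6, the taurine transporter gene, changed in opposite directions at one gene end and within its body. The region 0.4 kb from the gene end, chr6:91683166-91683667, had 5.80 and 5.80 in medium, 4.90 and 4.84 with CpG, 5.23 and 5.39 with LPS, and 5.23 and 4.94 with polyI:C. All 6 of these libraries were below medium, and the fall was 0.93 with CpG (that is, a log2 difference of -0.93, SE 0.13, adjusted p = 1.5e-06). A second region at the same gene end gave -0.02 with CpG and was not called. The region at chr6:91703253-91703754 inside the gene had 1.13 in both medium libraries, 3.79 and 3.97 with polyI:C, 2.11 and 2.75 with CpG, and 1.53 and 1.72 with LPS. It rose by 2.75 with polyI:C (SE 0.34, adjusted p = 1.3e-07), which was 2.25 above LPS (SE 0.34, adjusted p = 1.9e-05). Another region, chr6:91726633-91727134, rose with every stimulus, by 0.93 with CpG, 1.33 with LPS, 1.85 with polyI:C and 0.98 with TNF (adjusted p of 1.7e-04 or less in each).

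Slc6a12, which encodes a betaine and GABA transporter, opened at its start. The region at chr6:121343038-121343539 had 3.38 and 3.02 in medium, 4.32 and 4.29 with CpG, 3.87 and 4.03 with LPS, 3.81 and 3.48 with polyI:C, and 3.89 and 3.99 with TNF. The CpG libraries were the highest of these and none of the stimulated libraries overlapped medium. The rise was 1.10 with CpG (SE 0.18, adjusted p = 1.6e-05), and polyI:C gave 0.44 (SE 0.23, adjusted p = 0.17). The LPS and TNF calls did not hold without MM replicate 2 (adjusted p = 0.083 and 0.22).

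The Slc3 and Slc7 genes make the heteromeric exchangers. Of 33 regions of Slc7 light subunit genes, Slc7a6os included, 4 rose and 10 fell with CpG, the falls in 5 genes. The counts were 5 and 5 with LPS and 4 and 4 with polyI:C. Beside them, 17.2% and 8.79% of all regions rose and fell with CpG, 15% and 9.55% with LPS, and 14.3% and 8.28% with polyI:C. None of the 3 gene-end regions described first passed the test with a single stimulus. The region at the gene end of Slc3a2, the heavy chain shared by most light subunits, had 5.40 and 5.31 in medium, and its 4 differences from medium ran from -0.22 to 0.06. Slc7a5, which encodes the large neutral amino acid light subunit, had 4.62 and 4.92 in medium and differences of -0.12 to 0.14. Slc7a1, the constitutive cationic carrier gene whose window is printed above, had differences of 0.08 to 0.28, with adjusted p of 0.22 or more. None of these 12 differences was called, and with SEs of 0.13 to 0.20 a small change would not have been detectable.

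The single-stimulus changes described next for this group were inside or outside the genes. A region inside Slc3a2 at chr19:8711884-8712385 had 2.51 and 2.97 in medium and 4.29 and 4.44 with polyI:C, and rose by 1.63 (SE 0.28, adjusted p = 3.4e-05). A region inside Slc7a2, the inducible cationic carrier gene, at chr8:40890194-40890695 had 0.58 and 1.13 in medium, 3.86 and 3.43 with polyI:C, 1.53 and 1.77 with CpG, and 1.09 and 1.94 with LPS. The polyI:C libraries stood above the others, with a rise of 2.79 (SE 0.44, adjusted p = 7.9e-06) and 2.00 over CpG (SE 0.44, adjusted p = 0.0017). The Slc7a2 gene end gave 0.47 with polyI:C alone (SE 0.25, adjusted p = 0.18), and was called higher when polyI:C came before LPS or TNF. Inside Slc7a8, a light subunit gene for neutral amino acids, chr14:54770867-54771368 rose by 1.67 with polyI:C (SE 0.29, adjusted p = 3.4e-05) and gave 0.48 with CpG (adjusted p = 0.14).

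The steepest falls belonged to regions nearest to Slc7a13, which encodes an acidic amino acid light subunit known from kidney. The region at chr4:19838051-19838552 had 4.03 and 3.81 in medium, 2.36 and 2.11 with CpG, 2.90 and 2.95 with LPS, and -0.03 and 1.47 with polyI:C. Those 6 libraries were all below medium, although the polyI:C pair were far apart. The log2 difference was -3.20 with polyI:C (SE 0.30, adjusted p = 3.5e-10) and -1.68 with CpG (SE 0.24, adjusted p = 1.3e-06). At chr4:19848492-19848993 the order was the reverse, with -1.97 for CpG (SE 0.22, adjusted p = 1.0e-08) and -0.13 for polyI:C (SE 0.27, adjusted p = 0.79), and polyI:C was above CpG by 1.84 (SE 0.27, adjusted p = 1.1e-05).

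Of the 18 regions of the proton-coupled Slc36 genes, 5 rose and 1 fell with CpG, 5 rose and 0 fell with LPS, and 5 rose and 2 fell with polyI:C. Beside these, the shares of all regions were 17.2% and 8.79% with CpG, 15% and 9.55% with LPS, and 14.3% and 8.28% with polyI:C. The largest Slc36 rises were inside Slc36a4, a high-affinity amino acid carrier gene, at chr9:15714731-15715232. It had 0.74 and 0.31 in medium, 3.93 and 3.67 with CpG, 3.25 and 3.69 with LPS, 2.31 and 2.36 with polyI:C, and 2.26 and 1.75 with TNF. All stimulated libraries were above medium, and CpG and LPS were above polyI:C and TNF. The rise was 3.27 with CpG (SE 0.24, adjusted p = 4.3e-13) and 1.48 with TNF (SE 0.24, adjusted p = 4.0e-05). In reads, CpG gave 136 against 8 in medium, a depth-scaled ratio of 14.8 (95% counting interval 7.30 to 35.0). By contrast, a region inside Slc36a1, a lysosomal amino acid carrier gene, at chr11:55208171-55208672 had 5.47 and 5.46 in medium and 4.45 and 4.32 with polyI:C, a log2 difference of -1.08 (SE 0.17, adjusted p = 9.7e-06). The region 0.4 kb from a Slc36a1 gene end, chr11:55236765-55237266, went the other way. It rose by 0.74 with polyI:C (SE 0.25, adjusted p = 0.029).

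Slc38 genes encode sodium-coupled neutral amino acid carriers. With CpG, 11 of their 48 regions rose and 2 fell, where 17.2% of all regions rose and 8.79% fell. With LPS 8 rose and 1 fell (15% and 9.55% of all regions), and with polyI:C 6 and 1 (14.3% and 8.28%). The gene end of Slc38a2, a glutamine and alanine carrier gene, had 5.06 and 4.95 in medium, and its differences ran from -0.13 to 0.18 with no call. A region 34.0 kb from Slc38a11, at chr2:65279201-65279702, had 1.24 and 1.13 in medium, 3.74 and 3.39 with CpG, 3.25 and 2.59 with polyI:C, 1.94 and 1.79 with LPS, and 1.19 and 0.90 with TNF. CpG and polyI:C were above LPS, and TNF overlapped medium. The rise was 2.38 with CpG (SE 0.26, adjusted p = 7.1e-09), and LPS gave 0.68 (SE 0.26, adjusted p = 0.053). Inside Slc38a6, chr12:73307660-73308161 rose with all 4 stimuli, from 1.00 with TNF to 1.69 with CpG.

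The Slc43 genes include carriers of large neutral amino acids and, in Slc43a3, of purine nucleobases. At the Slc43a3 gene end, chr2:84936354-84936855 had 5.03 and 5.01 in medium and 3.95 and 4.38 with CpG, a log2 difference of -0.85 (SE 0.18, adjusted p = 3.6e-04). At 3.3 kb beyond the gene, chr2:84961815-84962316 had 5 and 0 reads in the medium libraries and 39 and 28 after polyI:C. That gave a depth-scaled ratio of 11.8 (95% counting interval 4.79 to 37.4) and a log2 rise of 2.90 (SE 0.51, adjusted p = 4.3e-05). CpG gave 0.31 there (SE 0.41, adjusted p = 0.64).

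**Figure D4:**
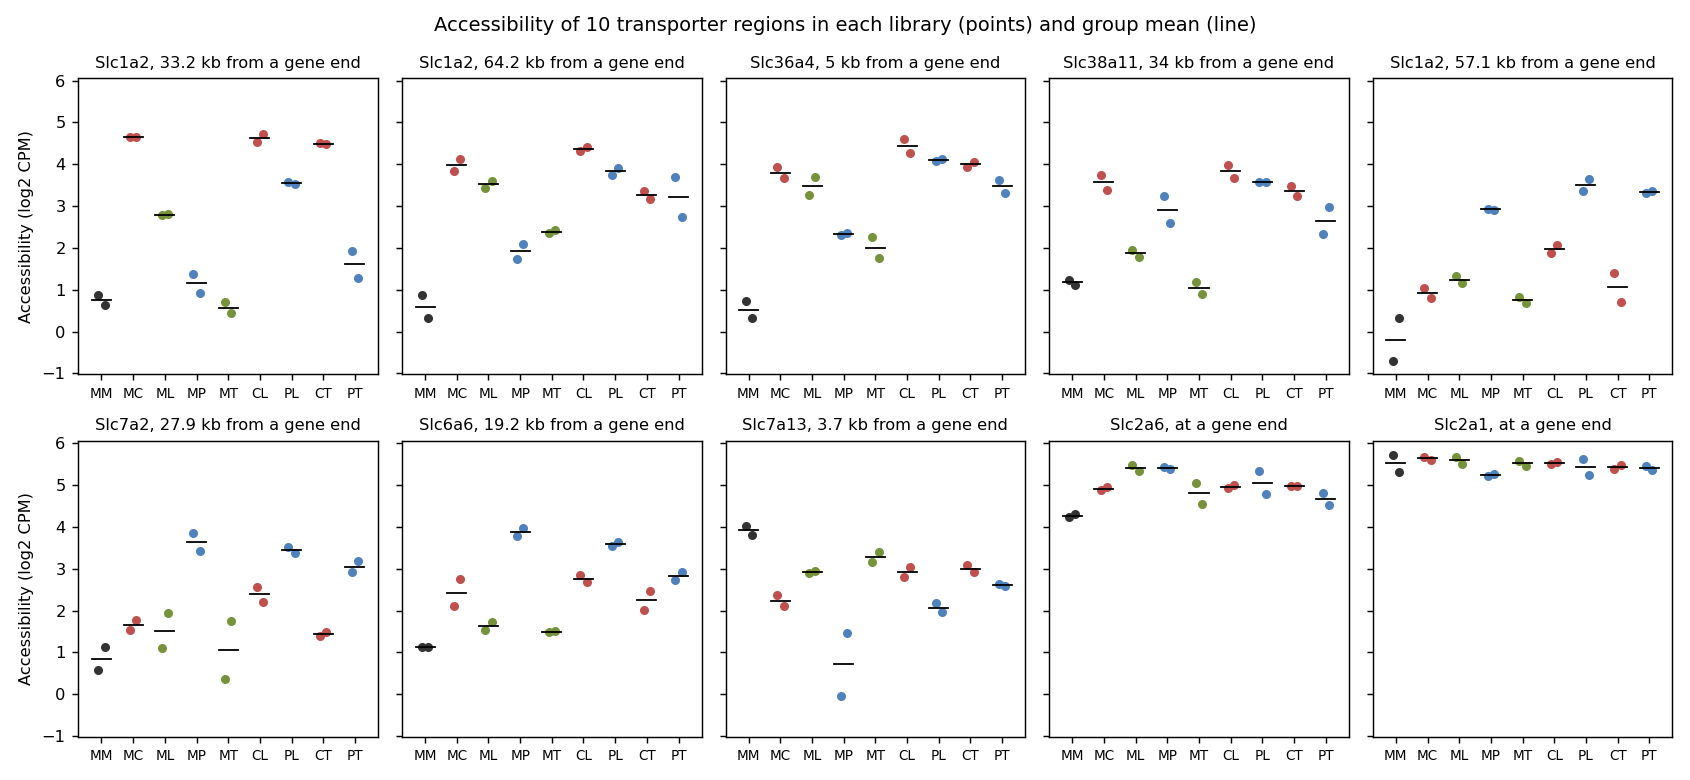
Accessibility in log2 CPM of 10 regions in each of the 18 libraries (points) with group means (lines); black is medium, red groups contain CpG, blue groups contain polyI:C and green groups received LPS or TNF alone. The Slc1a2 region 33.2 kb from a gene end is highest in the CpG groups, the Slc7a2 region in the polyI:C groups, and the Slc2a1 start region lies between 5.21 and 5.73 throughout.

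Across the 227 regions, 12 (5.3%, beside 3.9% of all regions) rose with all 4 stimuli, and 22 (9.7%, beside 7.0%) rose with CpG, LPS and polyI:C. A further 8 of 227 (3.5%, beside 2.9%) rose with polyI:C and were also above both CpG and LPS. They lie in or near Slc1a2, Slc3a2, Slc43a3, Slc6a6, Slc7a2 and Slc7a8. Conversely, 7 (3.1%, beside 4.4%) rose with CpG and were lower with polyI:C than with CpG, among them regions of Slc1a2, Slc36a4 and Slc6a12. In the direct comparison of polyI:C with CpG, 17 transporter regions were higher and 19 lower, where 5.2% and 7.47% of all regions were called. Without MC replicate 1 these 36 calls became 22, and without MC replicate 2 they became 23. PolyI:C against LPS gave 10 higher and 18 lower, with 6.24% and 5.19% of all regions, and the 28 became 16 without ML replicate 1. CpG against LPS gave 5 higher and 11 lower, with 3.74% and 1.93%, or 2 and 11 after quantile normalization. These 16 became 3 without MC replicate 1, 9 without MC replicate 2, and 3 and 5 when ML replicates 1 and 2 were dropped. LPS against TNF gave 7 higher and 2 lower, with 3.11% and 1.23%, and the 9 became 2 without either ML library and 3 without MT replicate 2.

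Giving CpG or polyI:C before the second stimulus, in place of medium, also raised and lowered transporter regions, again at rates close to those of the whole table. CpG before LPS gave 24 higher and 16 lower transporter regions than LPS alone, with 9.95% and 5.76% of all regions called; after aligning library medians the split was 21 and 29, and after quantile normalization 19 and 19. PolyI:C before LPS gave 31 higher and 18 lower, with 13.5% and 9.36% of all regions, and 24 and 22 after quantile normalization. CpG before TNF gave 29 higher and 12 lower, with 10.6% and 5.65%. PolyI:C before TNF gave 33 higher and 29 lower, with 15% and 12.7%, but 27 and 29 after quantile normalization, 29 and 32 after aligning medians, 30 and 37 without PT replicate 1, and 27 and 10 without PT replicate 2. Leaving out 1 library cut these totals. The 40 for CpG before LPS became 13 without CL replicate 1, 22 without CL replicate 2, and 17 and 18 when ML replicates 1 and 2 were dropped. The 49 for polyI:C before LPS became 22 without PL replicate 2, 28 without PL replicate 1, and 27 and 29 when ML replicates 1 and 2 were dropped. The 41 for CpG before TNF became 22 without CT replicate 2 and 26 without either MT library. The 62 for polyI:C before TNF became 35 without MT replicate 1 and 41 without MT replicate 2. Set against each other, CpG first gave 6 higher and 15 lower transporter regions than polyI:C first when LPS followed, with 4.24% and 4.23% of all regions. The 21 became 8 without either CL library, 12 without PL replicate 1 and 5 without PL replicate 2. When TNF followed, CpG first gave 32 higher and 27 lower, with 17.3% and 14.6%, and the 59 became 27 without CT replicate 2 and 28 without PT replicate 2.

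The Slc1a2 region with the strongest CpG response was also high when TNF followed CpG. At chr2:102757064-102757565 the levels were 4.50 and 4.48 with CpG then TNF, against 0.70 and 0.45 with TNF alone and 1.93 and 1.28 with polyI:C then TNF. The CpG-first libraries overlapped neither of the others. The difference from TNF alone was 3.92 (SE 0.25, adjusted p = 1.2e-13), and CpG first exceeded polyI:C first by 2.89 (SE 0.25, adjusted p = 2.5e-10). With LPS second, the levels were 4.54 and 4.72 after CpG and 2.78 and 2.81 without it, a difference of 1.83 (SE 0.25, adjusted p = 4.2e-06). The effect of CpG was smaller under LPS than under TNF by 2.09 (SE 0.35, adjusted p = 0.0015 for a log2 difference of -2.09). This was the 1 transporter region called for that interaction, where 0.245% of all regions were called.

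Some of the regions raised by polyI:C alone, 18 of 37 before TNF and 15 of 37 before LPS, were also higher when polyI:C came first. These shares, 48.6% and 40.5%, compare with 51.2% and 44.1% over all regions. At the Slc1a2 region chr2:102733221-102733722, polyI:C then TNF gave 3.32 and 3.36 against 0.84 and 0.69 with TNF alone, and polyI:C then LPS gave 3.37 and 3.65 against 1.33 and 1.15 with LPS alone. The groups did not overlap in either case, with differences of 2.57 (SE 0.35, adjusted p = 1.8e-06) and 2.27 (SE 0.35, adjusted p = 1.7e-05). The Slc7a2 region inside the gene gave 2.00 before TNF (SE 0.36, adjusted p = 8.6e-05) and 1.93 before LPS (SE 0.36, adjusted p = 1.7e-04). The Slc7a2 gene-end region gave 0.55 before TNF (SE 0.20, adjusted p = 0.040) and 0.74 before LPS (SE 0.20, adjusted p = 0.0072). For the interaction of polyI:C with the second stimulus, 0 of 227 transporter regions were called by limma and 0 by voom, 11 had an unadjusted p under 0.05, and 0% of all regions were called.

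Of the transporter regions, 9 (4.0%, beside 2.5% of all regions) were higher in all 4 priming comparisons. They include a region of Slc1a2, the Slc38a11 region 34.0 kb away, the Slc38a6 region at 20.9 kb and 3 regions inside Slc6a6. The Slc38a11 region had 3.99 and 3.68 with CpG then LPS and 3.57 and 3.57 with polyI:C then LPS, against 1.94 and 1.79 with LPS alone. The differences were 1.97 (SE 0.26, adjusted p = 3.4e-06) and 1.70 (SE 0.26, adjusted p = 1.5e-05). A region near a gene end of Slc2a9, a urate transporter gene, at chr5:38502009-38502510 gave 0.37 with CpG alone (SE 0.29, adjusted p = 0.40). It had 3.53 and 3.41 with CpG then LPS against 1.79 and 1.79 with LPS alone, a rise of 1.68 (SE 0.29, adjusted p = 1.4e-04).

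Some regions were lower after priming. Inside Slc38a10, chr11:120142553-120143054 had 6.21 and 6.10 with LPS alone, 5.12 and 5.51 with CpG then LPS, and 5.14 and 5.02 with polyI:C then LPS. Both primed groups were below LPS alone, with log2 differences of -0.84 (SE 0.18, adjusted p = 0.0011) and -1.08 (SE 0.18, adjusted p = 3.4e-05), the first of which was not called without CL replicate 1 (adjusted p = 0.072). The Slc36a1 region that fell with polyI:C had 4.32 and 4.20 with polyI:C then TNF and 5.38 and 5.13 with TNF alone, a log2 difference of -0.99 (SE 0.14, adjusted p = 2.9e-06). The Slc36a1 gene-end region was instead higher, by 1.11 with polyI:C before TNF (SE 0.20, adjusted p = 1.1e-04). With polyI:C before LPS it was higher by 0.70 (SE 0.20, adjusted p = 0.012). A region 43.5 kb from Slc38a2 gave -0.96 with polyI:C before LPS (SE 0.21, adjusted p = 9.9e-04) and -0.96 before TNF (SE 0.21, adjusted p = 7.8e-04).

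The changes left by a first stimulus can be set beside those of the stimulus alone in comparisons that share no library. The stimulus alone was given in the second 4 h, whereas a first stimulus was given in the 4 h before. Time since the stimulus and the presence of a second stimulus therefore cannot be told apart here. Over the 227 regions, the differences for CpG alone against medium and for CpG then TNF against TNF alone had a Pearson correlation of 0.66, which is also the value over all regions. Of 45 regions that rose with CpG alone, 14 (31.1%) were also higher with CpG before TNF, and these were 48.3% of the 29 in the second list. Over all regions those shares were 42.6% and 69.0%. When LPS was second, the correlation for CpG was 0.56, beside 0.51 over all regions, and 17 regions were in both lists. These were 37.8% of 45 and 70.8% of 24, beside 34.0% and 59.0% over all regions. For polyI:C before TNF the correlation was 0.62, beside 0.57 over all regions, and 18 regions were in both lists, 48.6% of 37 and 54.5% of 33, beside 51.2% and 48.7% over all regions. With LPS in place of TNF, which leaves out the PT libraries, the correlation for polyI:C was 0.60, beside 0.51 over all regions, and 15 regions were in both lists, 40.5% of 37 and 48.4% of 31, beside 44.1% and 46.5% over all regions. Regions of one gene are not independent, and all regions share the same libraries.

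**Figure D5:**
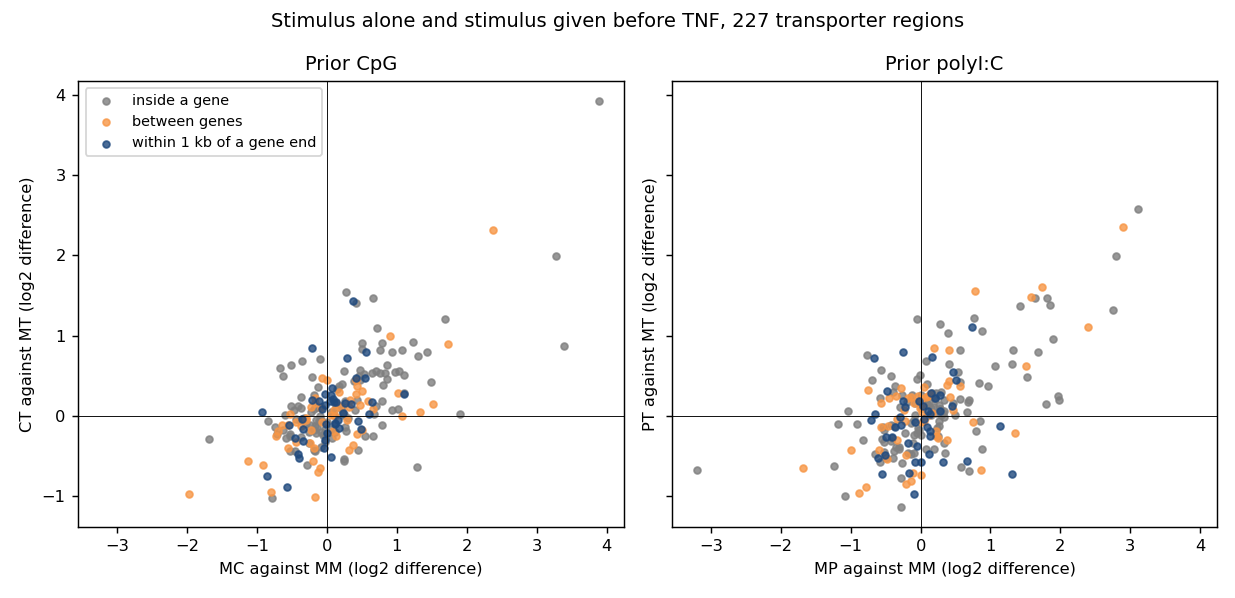
Log2 differences of the 227 transporter regions after a stimulus alone against medium (x axis) and with that stimulus before TNF against TNF alone (y axis), for CpG (left) and polyI:C (right), coloured by place. The Slc1a2 region with 3.89 and 3.92 is the point at the upper right of the CpG panel, and the correlations are 0.66 and 0.62.

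Other genes of amino acid and glucose handling were read from lists chosen with earlier results known. Their counts stand beside the shares of all regions called higher and lower, which were 17.2% and 8.79% with CpG, 15% and 9.55% with LPS, 14.3% and 8.28% with polyI:C, and 5.79% and 0.573% with TNF. Of 112 regions near 26 amino acid sensing and mTORC1 genes, 12 rose and 15 fell with CpG (10.7% and 13.4%), 14 rose and 6 fell with LPS, 10 rose and 5 fell with polyI:C, and 4 rose and 0 fell with TNF. Of 58 regions of integrated stress response genes, 12 rose and 2 fell with CpG (20.7% and 3.4%), 12 and 2 with LPS, 14 and 2 with polyI:C, and 3 and 0 with TNF. Of 66 regions of amino acid metabolism genes, 17 rose and 5 fell with CpG (25.8% and 7.6%), 13 and 5 with LPS, 12 and 2 with polyI:C, and 8 and 0 with TNF. A region 33.3 kb from Nos2, whose enzyme makes nitric oxide from arginine, rose by 2.70 with CpG (SE 0.29, adjusted p = 2.9e-09) and by 3.00 with polyI:C (SE 0.35, adjusted p = 4.0e-08). Of 80 regions of glucose use genes, 13 rose and 10 fell with CpG (16.2% and 12.5%), 8 and 4 with LPS, 13 and 5 with polyI:C, and 3 and 1 with TNF. A region inside Pfkfb3, an activator of glycolysis, rose by 3.28 with CpG (SE 0.24, adjusted p = 5.0e-13).

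With a first stimulus, more regions of the sensing and mTORC1 genes were lower than higher. CpG before LPS gave 1 higher and 15 lower (0.9% and 13.4%, beside 9.95% and 5.76% of all regions). PolyI:C before LPS gave 6 and 20 (5.4% and 17.9%, beside 13.5% and 9.36%). CpG before TNF gave 12 and 13 (10.7% and 11.6%, beside 10.6% and 5.65%), and polyI:C before TNF 13 and 30 (11.6% and 26.8%, beside 15% and 12.7%). The last was 18 and 39 without PT replicate 1 and 8 and 9 without PT replicate 2. A region near Nprl3, which encodes a part of the GATOR complex that restrains mTORC1, rose by 2.15 with CpG alone (SE 0.22, adjusted p = 1.5e-09). Regions of Depdc5, which encodes another part, went both ways. The one at chr5:32997580-32998081, outside the gene, gave -1.18 with CpG before LPS (SE 0.17, adjusted p = 1.2e-05). Inside the gene, chr5:32869607-32870108 rose by 2.05 with CpG alone (SE 0.27, adjusted p = 2.5e-07). It was higher by 1.98 with CpG before TNF (SE 0.27, adjusted p = 1.4e-06). With CpG then LPS it had 3.92 and 3.96, against 2.86 and 2.95 with LPS alone.

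Over all regions, 9.95% were higher and 5.76% lower with CpG before LPS, and 13.5% and 9.36% with polyI:C before LPS. The shares were 10.6% and 5.65% with CpG before TNF, and 15% and 12.7% with polyI:C before TNF. The 58 stress response regions had 4 higher and 3 lower with CpG before LPS (6.9% and 5.2%, or 3 and 6 after aligning medians). They had 4 and 9 with polyI:C before LPS (6.9% and 15.5%), 6 and 2 with CpG before TNF (10.3% and 3.4%), and 7 and 13 with polyI:C before TNF (12.1% and 22.4%). The last was 5 and 17 without PT replicate 1 and 6 and 3 without PT replicate 2. In the same order, the 80 glucose use regions had 4 and 8 (5.0% and 10.0%), 7 and 14 (8.8% and 17.5%), 5 and 5 (6.2% and 6.2%), and 6 and 10 (7.5% and 12.5%). The last was 8 and 20 without PT replicate 1 and 8 and 4 without PT replicate 2. The 66 amino acid metabolism regions had 8 and 4 (12.1% and 6.1%), 10 and 3 (15.2% and 4.5%), 7 and 1 (10.6% and 1.5%), and 10 and 6 (15.2% and 9.1%). Of these, the first became 5 and 6 and the second 8 and 10 after aligning medians. Aligning medians also moved the split for CpG before TNF, to 8 and 14 for the sensing, 5 and 4 for the stress response, 5 and 8 for the glucose use and 6 and 4 for the metabolism genes, and that of the glucose use genes for CpG before LPS to 3 and 19.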

How the data were processed

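The 18 ATAC-seq libraries (9 treatments, 2 libraries each, grouped by title) were processed before deposit on mm10 (GRCm38) with Bowtie2 2.2.5, MACS3 3.0.0b1, featureCounts, Picard and SAMtools 1.9, per the submitters' processing notes, whose settings are not given in the sources used here. The authors deposited log2 CPM for 53796 regions, each spanning 501 bases on 20 chromosomes, with coordinates as deposited. Every value returned whole reads within 0.01 for a prior of 3 reads, which puts 0 reads at -0.70 and understates changes at low counts. 0 columns were left unused.

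Regions were assigned to the nearest of 21900 RefSeq protein-coding gene bodies (GRCm38.p6, without strand) within 50 kb; 2 members were tied, and 12 Slc7a11 regions were left out. Start sites matched 42 of the 57 genes. Limma 3.58.1 (R 4.3.3) fitted 9 group means with a variance trend (8 residual and 26.64 prior degrees of freedom; MP as 1 sample) and 16 contrasts, with Benjamini-Hochberg adjustment over all regions and a threshold of 0.05. The median SE for CpG alone against medium was 0.208. Tested on simulated data for that comparison, over 53796 regions, 8% of log2 changes of 0.5, 68% of 1 and 100% of 2 and of 3 were recovered, with 7 other calls. The simulation changed 200 regions, each with a mean above 20 reads, at 1 dispersion of 0.01. In the data, 9269 regions were called higher and 4730 lower for that comparison. With so many more changes the adjustment is less strict, so these rates need not hold for the real calls. Counting intervals are exact binomial and cover counting error only. Tables used Python 3.11.15, pandas 2.3.3 and scipy 1.17.1.

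Named regions were the 4 largest rises and falls per comparison among called regions whose libraries did not overlap, 1 per gene, plus the best region of 22 preset genes and up to 2 per list of other genes; others named were chosen after their values were seen. The members and all lists were chosen with earlier results of these data known. Equal replicate numbers did not pair libraries: deviations of same-numbered libraries correlated between -0.358 and 0.242 (median 0) over 36 group pairs. Alternatives covered scaling, filtering, the log offset, the variance trend, the groups fitted, a replicate block, MP as 2 samples, voom on the recovered reads, assignment by gene end, and leaving out each library; leaving out both PT libraries, and the other scalings and single PT libraries for the lists of other genes, were added after seeing the data.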

Additional observations from a re-analysis of the deposited data

Results flagged for a closer look

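The Slc1a2 region at chr2:102757064-102757565 was taken up for a closer look because the effect of CpG there differed between the 2 second stimuli. The log2 effect was 1.83 under LPS (4.54 and 4.72 against 2.78 and 2.81) and 3.92 under TNF (4.50 and 4.48 against 0.70 and 0.45), a difference of -2.09 (SE 0.35, limma adjusted p = 0.0015). LPS alone raised the region, by 2.04 against medium, while TNF alone gave -0.19 (adjusted p = 0.80). The cause was not tested.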

How the results depend on the processing

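None of the 231 named values reversed under any alternative run. A block for the replicate number left the call of all 231 as it was, and so did an offset of 1 CPM. Quantile normalization ended 10 calls, and leaving out each library in turn ended 80 calls and added 8, counted over all libraries. Scaling moved the median of all regions by at most 0.10 on the log2 scale. The totals of transporter regions called moved more. With regions under the 25th percentile of mean level left out, the totals were 22 for CpG before LPS (40 in the main analysis), 28 for polyI:C before LPS (49 in the main analysis), 25 for CpG before TNF (41 in the main analysis), 41 for polyI:C before TNF (62 in the main analysis), 12 for CpG against polyI:C before LPS (21 in the main analysis), 9 for CpG against LPS (16 in the main analysis), 14 for polyI:C against LPS (28 in the main analysis), 21 for polyI:C against CpG (36 in the main analysis) and 0 for the CpG interaction (1 in the main analysis). With only the compared groups in the fit, they were 64 for CpG before LPS (40 in the main analysis), 32 for polyI:C before TNF (62 in the main analysis), 39 for CpG against polyI:C before LPS (21 in the main analysis), 26 for CpG against polyI:C before TNF (59 in the main analysis), 37 for CpG against LPS (16 in the main analysis), 53 for polyI:C against LPS (28 in the main analysis), 22 for LPS against TNF (9 in the main analysis) and 5 for the CpG interaction (1 in the main analysis). Quantile normalization gave 10 for TNF alone (16 in the main analysis) and 36 for CpG against polyI:C before LPS (21 in the main analysis). With the MP libraries as 2 samples the total was 50 for polyI:C against LPS (28 in the main analysis). Voom on the recovered reads gave 50 for polyI:C against LPS (28 in the main analysis) and 2 for the CpG interaction (1 in the main analysis). Without both PT libraries in the fit, the totals were 25 for TNF alone (16 in the main analysis), 39 for CpG against polyI:C before LPS (21 in the main analysis), 28 for CpG against LPS (16 in the main analysis), 17 for LPS against TNF (9 in the main analysis) and 5 for the CpG interaction (1 in the main analysis). Leaving out each library in turn gave totals of 13 to 22 for CpG before LPS, 5 to 12 for CpG against polyI:C before LPS, 22 to 31 for CpG before TNF, 27 to 82 for CpG against polyI:C before TNF, 1 to 1 for the CpG interaction, 3 to 9 for CpG against LPS, 45 to 54 for CpG alone, 34 to 46 for LPS alone, 2 to 7 for LPS against TNF, 22 to 37 for polyI:C against CpG, 16 to 31 for polyI:C against LPS, 39 to 63 for polyI:C alone, 11 to 14 for TNF alone, 22 to 29 for polyI:C before LPS, 35 to 67 for polyI:C before TNF and 0 to 1 for the polyI:C interaction. The cause of these shifts was not tested, although a filter leaves fewer regions and a left-out library fewer samples. The one call for the CpG interaction is absent under the filter because that region falls below it. With 2 libraries a group, small changes can go uncalled. In the simulated data, which held fewer changed regions, 8% of changes of 0.5 on the log2 scale were called.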
